A study of Homo sapiens with 8 samples.

Results

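The set described here holds every candidate acetylation site found in NAT10 knockdown (NAT10 KD) cells whose gene was missing from the site list of wild-type (WT) cells. It comprised 673 sites in 623 genes. The whole NAT10 KD list had 950 sites in 845 genes, and both lists together had 1851 distinct sites in 1506 genes. These genes were therefore 41.4% of all listed genes and 73.7% of the genes of the NAT10 KD list, and their sites were 70.8% of the NAT10 KD sites. The set was chosen by presence in one list and absence from the other, which the authors' score per site decided, so these shares are a description only.

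The cells were H1, an established human embryonic stem cell line, and the assay was chemical ac4C sequencing. For NAT10 KD, a lentivirus delivered an shRNA against NAT10 together with GFP, and the GFP-positive cells were enriched and grown in TeSR-E8 with puromycin. For WT cells the labels name no virus and no control shRNA, and the growth protocol names PGM1 medium, so the effects of NAT10 loss, transduction, sorting, selection and medium cannot be told apart. The 8 libraries formed 4 groups of 2 replicates: NAT10 KD RNA treated with sodium cyanoborohydride (NaCNBH3), NAT10 KD input RNA, WT treated RNA and WT input RNA. One list per genotype was analysed, with no value per replicate, no read depth and no expression level, so neither the knockdown of NAT10 nor the spread between replicates could be examined.

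N4-acetylcytidine (ac4C) is an acetylated cytidine. NAT10 is the RNA acetyltransferase that writes it on ribosomal and transfer RNA, and it has also been reported to act on messenger RNA. Reduction by NaCNBH3 changes the modified base so that reverse transcriptase often misreads it, which turns an acetylated C into a C-to-T change in the treated RNA. Because each list appears to end at a score threshold, a gene missing from the WT list is not shown to lack acetylation there.

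The reference sequence could be read at 32 of the 673 sites, those lying in the windows that RefSeq gives for gene starts (250 bases before to 50 after a start, GRCh38.p14, the same assembly as hg38). All 32 stood on a reference C on the strand of the site. The same held for 17 of 17 covered NAT10 KD sites in genes of both lists and for 55 of 55 covered WT sites. Examples are shown because they include high scores and the contrasting contexts around the sites, with the listed C in capitals, 5′ to 3′ on the strand of the site. They are chaperonin subunit CCT7, mitochondrial ribosomal protein MRPL14, proteasome ATPase PSMC5, heat shock factor binding protein HSBP1, spindle protein PSRC1, MOB family protein MOB4, docking protein DOK4, ribosomal proteins RPS10 and RPL19, and the miRNA host transcript MIR302CHG.
CCT7, chr2:73234323-73234347, plus strand: gcggcccggtctCggagaagagggg
MRPL14, chr6:44127342-44127366, minus strand: gattttcccgggCggcgagagcggt
PSMC5, chr17:63827490-63827514, plus strand: gatggcgcttgaCggaccagagcag
HSBP1, chr16:83808004-83808027, plus strand: ggggcgactgagCggacaaacgga
MOB4, chr2:197516108-197516132, plus strand: gcagtgctgaggCggaacaggccgg
PSRC1, chr1:109283097-109283121, minus strand: gaaagcctgttgCgtggaagataag
DOK4, chr16:57479735-57479759, minus strand: aagagagcgagaCagcgagaggaag
MIR302CHG, chr4:112648654-112648672, minus strand: tgggaactagttCaggaag
RPS10, chr6:34426057-34426081, minus strand: cgcatgctccttCctttccagcccc
RPL19, chr17:39200305-39200329, plus strand: cccgagcgagctCtttcctttcgct

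In CCT7, MRPL14, PSMC5, HSBP1 and MOB4 the site C was followed by gg and then by mostly A and G. RPS10 and RPL19 differed: their site C was followed by ctttcc and by tttcctttc, which are pyrimidines. Ribosomal protein transcripts are known to begin with a C followed by a run of pyrimidines, and the RPS10 site lay at RefSeq's start itself (distance of 0 bases). The RPL19 site lay 34 bases after the start.

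The score is the authors' own value for each site, and all scores below are from the authors' deposited lists. Since it decided which sites were listed, it belongs to the readout that chose the set and no test was made on it. Most sites had low scores. Of 673 sites, 208 scored below 1.5, 287 scored 1.5 to 2, 124 scored 2 to 3, 36 scored 3 to 5, 11 scored 5 to 10 and 7 scored 10 or more. The median score was 1.67 (95% interval 1.63 to 1.72) in genes listed in NAT10 KD only, against 1.89 (1.76 to 2.03) for the 277 NAT10 KD sites in genes of both lists. In genes listed in WT only it was 1.65 (1.61 to 1.70) over 721 WT sites. A score of at least 2 was reached by 178 of 673 sites (26.4%, 23.2 to 30.0) in genes listed in NAT10 KD only, against 125 of 277 sites (45.1%, 39.2 to 51.2) in genes of both lists and 207 of 721 WT sites (28.7%, 25.4 to 32.2) in genes listed in WT only. Intervals for shares are exact Clopper-Pearson intervals. All intervals cover counting error only and treat sites as independent, which sites sharing a transcript are not. Among the 10 highest scores of the NAT10 KD list 3 belonged to the set, and among the 100 highest 50 did.

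**Figure D1:**
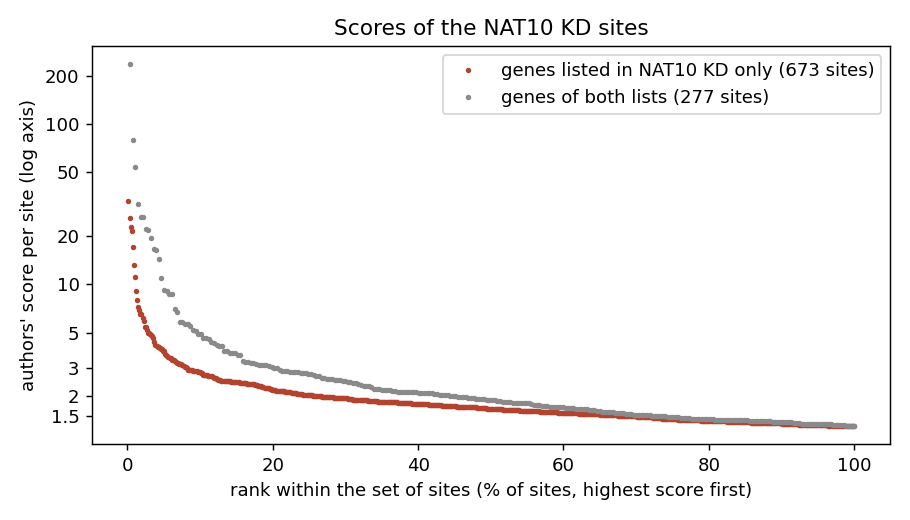
Authors' score of each NAT10 KD site (log axis) against its rank within its set (percent of sites, highest first), for 673 sites in genes listed in NAT10 KD only (red) and 277 in genes of both lists (grey). The highest scores were 33.1 in red and 237 in grey, and both curves end near 1.3.

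The highest score, 33.1, was in MT-RNR2, the mitochondrially encoded large ribosomal RNA, at position 2544 of chromosome M. BTF3, a transcription factor that is also the beta subunit of the nascent polypeptide-associated complex, had a site scoring 25.8 (chromosome 5, position 73498552, plus strand). UCHL1, a ubiquitin hydrolase abundant in neurons, had one of 22.7 (chromosome 4, position 41256990, plus strand). These 3 sites were the members among the 10 highest scores of the NAT10 KD list. RPS20, a protein of the small ribosomal subunit, followed with 21.5.

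HNRNPC, which binds nuclear pre-mRNA, had a site scoring 17.1 (chromosome 14, position 21269345, minus strand). DPY30, a shared subunit of the histone H3 lysine methyltransferase complexes, scored 13.3 (chromosome 2, position 32039449, minus strand). PARK7, a protein that protects against oxidative stress, scored 11.1 (chromosome 1, position 7962848, plus strand). Scores below 10 completed the 10 highest. ENSA, an inhibitor of protein phosphatase 2A in mitosis, scored 9.11 (chromosome 1, position 150627565, minus strand). ATP5MC3, a membrane subunit of mitochondrial ATP synthase, scored 8.01 (chromosome 2, position 175181417, minus strand), and the CCT7 site shown above scored 7.26. Of these 10 genes, 6 (BTF3, RPS20, HNRNPC, PARK7, ENSA and CCT7) have a pseudogene named after them in RefSeq. Reads of such copies and of the parent gene can be exchanged in mapping, and how this bears on the sites was not tested.

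At the low end, PDCD11, a ribosome assembly factor, had a site of 1.30173, DNAJA3, a mitochondrial co-chaperone, 1.30212, the ceramide kinase CERK 1.30218, and the zinc finger gene ZNF33B 1.30255. The lowest score in the WT list was 1.30155. Just outside the selection were genes of both lists with a WT score near that floor. SLC38A1, a glutamine transporter, scored 4.87 in NAT10 KD and 1.3046 in WT. LETM1, an inner mitochondrial membrane protein, scored 3.26 in NAT10 KD and 1.31 in WT. Of the 222 genes in both lists, 20 had a highest WT score below 1.4 and 102 had one below 2.

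No site of the set had a WT site within 1000 bases on the same strand, so none was a WT position listed under another gene identifier nearby. Within 10000 bases there were 5. The SNRPN site (chromosome 15, position 24977861) lay 1244 bases from a WT site assigned to SNHG14, a transcript of the same imprinted region. The MT-RNR2 site lay 1810 bases from a WT site in MT-RNR1, the small mitochondrial ribosomal RNA, which scored 18.8 in WT. The other 3 were in MDP1, IFITM1 and KIF22, at 3548, 5770 and 8723 bases. For comparison, 119 of the 277 NAT10 KD sites in genes of both lists had a WT site within 10 bases, a proximity that sharing a gene makes possible.

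Sites lay mostly towards the ends of their genes. Position was expressed as a percentage of the gene span, from the 5′ to the 3′ end, and 657 of 673 sites lay inside the span. The last 20% of the span held 220 sites (33.5%, 29.9 to 37.2) and the first 20% held 158 (24.0%, 20.8 to 27.5). The stretch between 20% and 40% held 78 sites, that between 40% and 60% held 74, and that between 60% and 80% held 127. In genes of both lists, the last 20% held 96 of 273 sites (35.2%, 29.5 to 41.1) and the first 20% held 75 (27.5%, 22.3 to 33.2), so the intervals of both sets overlapped. The median position was 62.6% (57.7 to 66.2) in the set, against 61.1% (54.9 to 69.3) in genes of both lists. The span includes introns, and exons and untranslated regions were not analysed here.

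**Figure D2:**
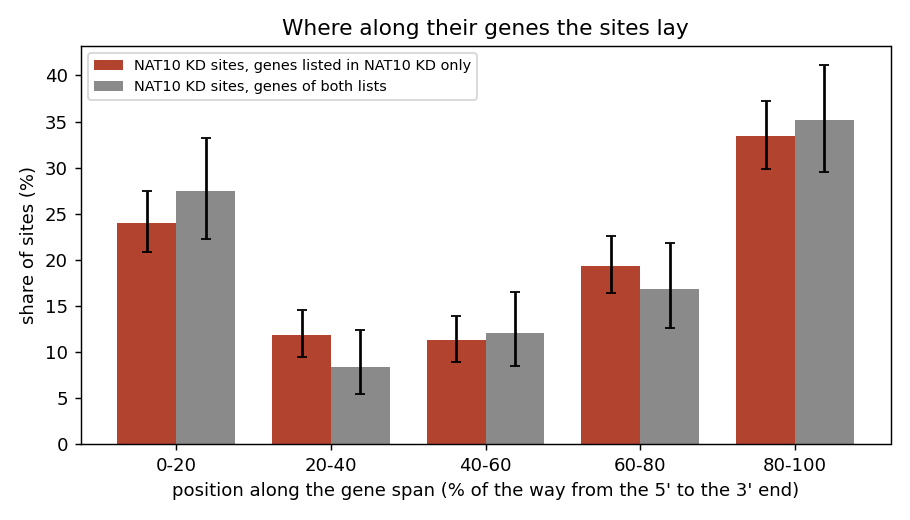
Share of NAT10 KD sites (percent, exact 95% intervals) in each 20% of the gene span, 5′ to 3′, for 657 sites in genes listed in NAT10 KD only (red) and 273 in genes of both lists (grey). The last 20% held 33.5% in red and 35.2% in grey, and the intervals of both sets overlap in every bin.

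The highest scores were found near the 5′ end. Of the 18 sites with a score of 5 or more inside a gene span, 13 (72.2%, 46.5 to 90.3) lay in the first 10% of the span and 1 lay in the last 20%. Among sites scoring 3 to 5 the first 10% held 16 of 36 (44.4%, 27.9 to 61.9), among those scoring 2 to 3 it held 25 of 122 (20.5%), and below 1.5 it held 23 of 198 (11.6%, 7.51 to 16.9). The median position was nearer the 5′ end in the classes above 2, at 65.6% of the span for scores below 1.5, 66.0% for 1.5 to 2, 58.2% for 2 to 3, 14.2% for 3 to 5 and 2.07% for 5 or more. The sites of UCHL1, HNRNPC and CCT7 stood at 0.538%, 0.161% and 0.144% of the span, which is 62, 97 and 27 bases after RefSeq's start. The 5 high-scoring sites past the first 10% were in MT-RNR2 (56.0%), ENSA (24.5%), the splicing-associated factor BCLAF1 (61.1%), MIR302CHG (41.8%) and the myosin light chain gene MYL12A (94.8%). The span ignores starts inside a gene, and the MIR302CHG site lay 43 bases after such a RefSeq start.

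Higher scores went with a larger share near the 5′ end in the other sites too, to differing extents. With a score of 5 or more, the first 10% held 11 of 26 NAT10 KD sites in genes of both lists (42.3%, 23.4 to 63.1). It held 8 of 23 sites in genes listed in WT only (34.8%, 16.4 to 57.3) and 28 of 58 sites of the whole WT list (48.3%, 35.0 to 61.8). The interval of the set overlapped each of these, and the difference was not tested. Over all scores it held 121 of 657 sites of the set (18.4%) and 222 of 984 of the WT list (22.6%). Across sites, Spearman's rho between score and position was −0.14 in the set (657 sites), −0.22 in genes of both lists (273 sites), −0.07 in genes listed in WT only (705 sites) and −0.14 in the whole WT list (984 sites). These are weak, and the points share libraries, and some share a transcript. Read coverage along transcripts is not in the lists, so its part in this pattern was not tested.

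**Figure D3:**
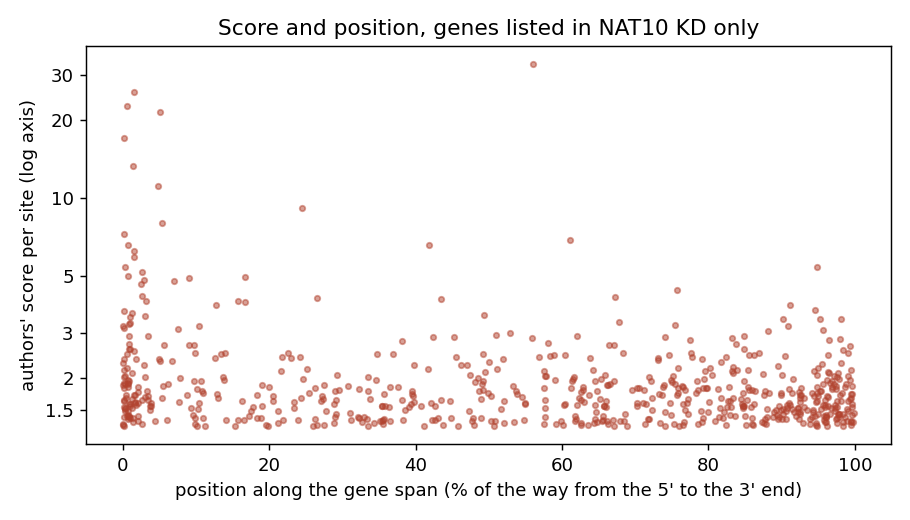
Authors' score (log axis) against position along the gene span (percent, with 0 at the 5′ end) for the 657 sites in genes listed in NAT10 KD only that lay inside a span; each point is a site. Of the 18 sites scoring 5 or more, 13 lie in the first 10%, while low scores occur along the whole span and most densely near both ends.

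Distance was taken to the nearest RefSeq start of the gene at or before the site. It is negative where all starts lay after the site. Such a start need not be the 5′ end of the span: the OLFM2 site lay 749 bases after a start but at 95.5% of the span. This distance was available for 530 sites, and all 530 lay on the annotated strand of their gene. Only sites at or after a start were counted as near it. This leaves out, for example, the sites of MRPL14 (-46 bases) and SLC22A17 (-10 bases). Within the 100 bases after a start lay 39 of 530 sites of the set (7.36%, 5.28 to 9.92). For NAT10 KD sites in genes of both lists this was 34 of 233 (14.6%, 10.3 to 19.8). The share in genes listed in WT only was 43 of 614 (7.003%). Within the 1000 bases after a start the share was 20.4% (17.0 to 24.1) in the set. It was 30.5% (24.6 to 36.8) in genes of both lists and 21.2% in genes listed in WT only. No test of these shares was made. Of all 673 sites, 78 (11.6%) lay over more than 1 annotated gene, so their gene assignment is uncertain.

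By RefSeq class 587 of 623 genes (94.2%, 92.1 to 95.9) were protein-coding, 15 were pseudogenes, 12 were long noncoding RNAs, 1 was a ribosomal RNA and 8 were not matched. A total of 173 genes (27.8%, 24.3 to 31.5) were a pseudogene or had one named after them, against 73 of 222 (32.9%, 26.7 to 39.5) among genes of both lists. Functional groups were assigned by lists of symbols and symbol roots to 370 of the 614 named genes. These lists are incomplete, so each count is of the genes that a list holds and not of all genes with that function; PDCD11 above, for example, is not in the ribosome assembly list. Below, each count for these 614 genes is followed by the count among the 220 named genes of both lists and the 653 listed in WT only. The share in genes listed in WT only was inside the 95% interval of the set's share for 24 of 29 groups. For the share in genes of both lists this held for 17 of 29. These counts leave out the error of the compared share, which is wide for 220 genes. The interval of the share in genes of both lists overlapped that of the set in every group. No enrichment test was made, and no group is called particular to the set.

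**Figure D4:**
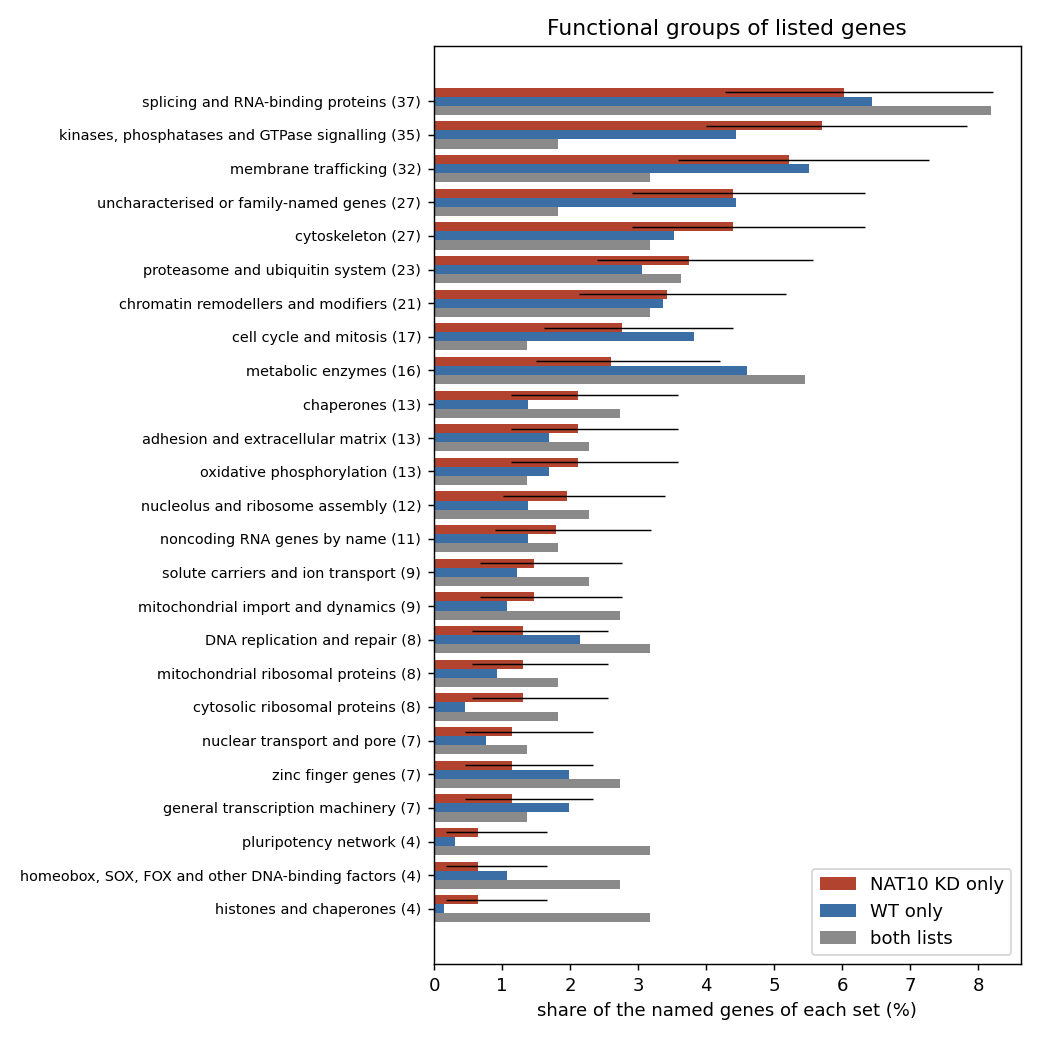
Share of named genes (percent) in each functional group for genes listed in NAT10 KD only (red, exact 95% intervals; number of genes beside each name), in WT only (blue) and in both lists (grey). Splicing and RNA-binding proteins are the largest red group (37 genes, 6.03%), and groups with fewer than 4 red genes are not drawn.

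RNA processing was the largest group. Splicing and RNA-binding proteins numbered 37 genes (6.03%), against 18 (8.18%) in both lists and 42 (6.43%) in WT only. HNRNPC led with 17.1, followed by LSM7, part of the ring bound to U6 RNA, with 5.18, and LSM1, part of the ring that promotes mRNA decay, with 4.63. Among them were 5 HNRNP genes (HNRNPC, HNRNPR, HNRNPA3, HNRNPH3 and HNRNPL), while 4 were in both lists and 1 in WT only. Many of these genes have copies: without pseudogenes and genes that have one, 17 of its 37 genes were left. Nuclear transport and pore genes numbered 7, with the pore scaffold subunit SEH1L at 2.50, the basket protein TPR at 1.96 and NUP205 at 1.81.

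Genes that make and run ribosomes were also present. Cytosolic ribosomal proteins numbered 8, against 4 in both lists and 3 in WT only. The 8 included RPS20 (21.5), RPL13A (3.38) and RPS10 (3.19). Counted by the best site of each gene, 5 of the 8 had a score of 2 or more. Of all sites of the set 26.4% did, and this was not tested. The nucleolus and ribosome assembly list held 12 genes, against 5 and 9. IMP3 (4.14) and IMP4 (2.32) are partners in the complex formed around U3 RNA, and NOP56 (3.38) is a core protein of small nucleolar RNPs. Translation factors numbered 2, against 2 in both lists and 11 in WT only, and were the elongation factor subunit EEF1G (4.89) and EIF5A (2.88), which relieves stalled ribosomes. The aminoacyl-tRNA synthetase list held GARS1 (2.48) and NARS2 (1.35), and FARSB (1.67), a phenylalanyl-tRNA synthetase subunit outside that list, was also in the set.

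Mitochondrial genes fell into several groups. Oxidative phosphorylation had 13 genes, against 3 in both lists and 11 in WT only, led by ATP5MC3 (8.01), the complex I subunit NDUFA2 (4.81) and the electron transfer flavoprotein subunit ETFB (3.20). For succinate dehydrogenase, SDHA, SDHB and the assembly factor SDHAF4 were listed in NAT10 KD and no SDH gene in WT, with scores of 1.31, 1.31 and 1.84. SDHA and SDHB were close to the lowest score listed. Of all genes of the NAT10 KD list, 73.7% were absent from the WT list. The SDH family was picked after its members were seen and was not tested. Mitochondrial ribosomal proteins numbered 8, against 4 and 6, with MRPL14 at 6.55, MRPL24 at 2.82 and MRPS7 at 2.50. The 9 import and dynamics genes included the oxoglutarate carrier SLC25A11 (2.699), the mitochondrial elongation factor TUFM (2.38) and the translocase subunit TIMM22 (2.15).

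Metabolic enzymes numbered 16 (2.61%, 1.497 to 4.20), against 12 (5.45%) in both lists and 30 (4.59%) in WT only. PSPH, the last enzyme of serine synthesis, scored 3.38, the folate enzyme MTHFD1L 2.50, and ASS1, which makes argininosuccinate, 2.42. Solute carriers and ion transport had 9 genes, with the auxiliary channel subunit CACNG8 (2.91), SLC38A10 (2.81) and the calcium channel TMCO1 (1.82) in front.

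Protein quality control was represented by 23 proteasome and ubiquitin genes, against 8 in both lists and 20 in WT only. By their best site, 11 of these 23 genes had a score of 2 or more, against 26.4% of all sites of the set. This was not tested. Behind UCHL1 (22.7) came the proteasome ATPase PSMC5 (5.89). Chaperones numbered 13, against 6 and 9. CCT7 (7.26) was followed by the HSP90 co-chaperone PTGES3 (3.47) and by DNAJB12 (2.46), 1 of 5 DNAJ genes in the set.

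Membrane trafficking had 32 genes (5.21%, 3.59 to 7.28), against 7 (3.18%) in both lists and 36 (5.51%) in WT only. GABARAP, a ubiquitin-like protein of autophagosomes, had 4.74, the cargo receptor ERGIC3 3.48 and the small GTPase ARL3 2.49. The signalling group of kinases, phosphatases and GTPase regulators had 35 genes (5.70%, 4.002 to 7.84), against 4 (1.82%) in both lists and 29 (4.44%) in WT only. CSNK2A1, the catalytic subunit of casein kinase 2, led with 4.38, ahead of GPRIN2 (2.89) and the phosphatase 6 regulatory subunit PPP6R2 (2.13). By their best site, 3 of the 35 genes reached a score of 2, against 26.4% of all sites of the set. This was not tested. The cytoskeleton group had 27 genes, against 7 and 23, with MYL12A (5.39), the dynein regulator NUDC (3.84) and the dynein light chain DYNLT2B (2.47). Adhesion and matrix genes numbered 13, with the tetraspanin CD9 (6.20), SEMA6A (2.83) and the syndecan SDC2 (2.03).

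Among nuclear genes, chromatin remodellers and modifiers numbered 21, against 7 in both lists and 22 in WT only. After DPY30 (13.3) came the remodelling complex subunit ACTL6A (4.97) and the condensin subunit NCAPH (2.39). Histones and their chaperones numbered 4, against 7 and 1, and included the variant histone H2AX (3.97) and the chromatin protein HMGB2 (1.78). Transcription machinery had 7 genes, with GTF2F1 (3.05) and the mediator subunit MED6 (2.43) behind BTF3. Cell cycle genes numbered 17, against 3 and 25, led by the centromere protein CENPH (3.25), the kinesin KIF22 (2.99) and CDC20 (2.49), the activator of the anaphase-promoting complex. The 8 genes of DNA replication and repair included the uracil-DNA glycosylase UNG (3.10) and the recombination protein XRCC3 (2.09). Of 7 zinc finger genes, ZNF511 (2.69), ZSCAN18 (1.81) and ZNF263 (1.56) scored highest. The list of other DNA-binding factors held 4 genes, with SALL4 (1.72), FOSL1 (1.72) and ATF5 (1.68) highest, and SRF (1.83), a transcription factor outside that list, was also in the set.

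Some genes of the pluripotent state were in the set. Of 12 embryonic stem cell markers, 3 were listed in NAT10 KD only: CD9 (6.20), the stem cell transcript ESRG (1.99) and LIN28A (1.42), which blocks maturation of let-7. The whole NAT10 KD list held 7 of the 12, and 73.7% of all genes of that list were in the set. The pluripotency group as a whole had 4 genes (0.651%, 0.178 to 1.66), against 7 (3.18%) in both lists and 2 (0.306%) in WT only. Of 12 markers of other cell types, only the neuronal tubulin TUBB3 (1.48) was in the set, and the whole NAT10 KD list held 2. The lists show whether a marker had a site, not its level, and cannot test the identity of the cells.

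The long noncoding RNA gene with the highest score was MIR302CHG (6.57), the host transcript of the miR-302 and miR-367 cluster, which is characteristic of human embryonic stem cells. Its site (chromosome 4, position 112648660, minus strand) lay 43 bases after a RefSeq start and 103 bases upstream of the first hairpin, that of miR-302b, with the other hairpins at 230 (miR-302c), 409 (miR-302a), 589 (miR-302d) and 719 bases (miR-367). The mature 3p miRNAs of the cluster are shown because they are what this transcript gives rise to, as RefSeq lists them, with the seed (bases 2 to 8) in capitals.
hsa-miR-302b-3p: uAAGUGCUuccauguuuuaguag
hsa-miR-302c-3p: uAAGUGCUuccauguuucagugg
hsa-miR-302a-3p: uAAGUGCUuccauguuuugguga
hsa-miR-302d-3p: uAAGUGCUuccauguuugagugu
hsa-miR-367-3p: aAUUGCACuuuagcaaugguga

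The miR-302 members share 1 seed and miR-367 has another. Chromosome 8, with 23 sites of the set, was left out of the search for miRNA hairpins. On the other chromosomes 38 genes of the set host 45 miRNA hairpins on the strand of their site. Of the sites in these genes, 0 lay inside a hairpin. After MIR302CHG the highest long noncoding RNA genes were the small nucleolar RNA host SNHG30 (2.703), FLVCR1-DT (2.69) and ESRG (1.99). The highest pseudogenes were RPS2P46 (4.04), RPS15P4 (3.50), ZNF321P (2.46) and RPLP0P9 (2.17), most of them named after ribosomal protein genes.

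Most genes had a single site: 576 of 623 genes had 1, 44 had 2 and 3 had 3. Among the 222 genes of both lists, 175 had 1 site in NAT10 KD, 39 had 2 and 8 had 3. The 50 pairs of neighbouring sites in the set were a median of 1304 bases apart, 7 of them at most 10 bases and 23 at most 1000. The nuclear lamina gene LMNB2 had sites at positions 2433880, 2433909 and 2434425 of chromosome 19, scoring 2.19, 1.61 and 1.75. FDX2, a ferredoxin of iron-sulfur cluster synthesis, had 3 sites on the same chromosome with scores of 1.36 to 1.44, at positions 10310391, 10315441 and 10315750. The cytoskeletal linker PLEC also had 3, scoring 1.33 to 1.95.

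In some genes with 2 sites these were adjacent. LSM7 had neighbouring positions 2328402 and 2328403 on chromosome 19, with 4.15 and 5.18. EEF1G had 62572590 and 62572591 on chromosome 11, with 4.89 and 2.68. PLEKHA7, a protein of adherens junctions, had 16974835 and 16974845 on chromosome 11, with 4.93 and 3.96. In GABARAP the sites, scoring 4.74 and 1.72, were at 7242277 and 7242407 of chromosome 17, and in UNG, with 2.19 and 3.10, at 109097675 and 109098608 of chromosome 12.

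The sequence around the 32 covered sites was set beside all cytosines of the same start windows, read on the strand of the site. The CCG triplet with the site as its middle C, the context known for ac4C written by NAT10 in ribosomal RNA, was found at 2 of 31 sites (6.45%, 0.791 to 21.4), against 235 of 2718 cytosines of the windows (8.65%). It was at 5 of 54 covered sites of the WT list (9.26%, 3.08 to 20.3). Among covered NAT10 KD sites in genes of both lists it was at 4 of 17 (23.5%, 6.81 to 49.9). A G directly after the site was found at 15 of 31 sites (48.4%, 30.2 to 66.9), against 27.3% of the cytosines of the windows. CGG beginning at the site was found at 10 of 31 (32.3%, 16.7 to 51.4), against 10.6%. The covered sites of the WT list had both contexts at similar shares, 51.9% (37.8 to 65.7) for the G and 35.2% (22.7 to 49.4) for CGG. The window cytosines include the sites themselves.

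Downstream of the site the bases were mostly purines, A or G. Over positions 1 to 12 after the site 69.9% of bases were purines, against 49.8% after the cytosines of the windows. Over positions 1 to 12 before it the share was 60.2%, against 50.1%. At positions 4 to 8 after the site 104 of 135 bases were purines (77.0%), against 49.8%. The plan named the CCG context only, so this narrower stretch, the following G and CGG were not planned. GAG or AGA, triplets chosen after the sequences were seen, occurred within 12 bases after the site at 17 of 23 sites with full flanks (73.9%, 51.6 to 89.8), against 775 of 2640 cytosines (29.4%). The examples of CCT7 (gagaag), MRPL14 (gagag) and DOK4 (gagagg) show them. The WT list had the same feature, with 73.7% purines at positions 4 to 8 and GAG or AGA at 34 of 51 sites (66.7%, 52.1 to 79.2). Only sites close to annotated starts could be read (32 of 673), and nothing is known here of the sequence at the other sites.

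**Figure D5:**
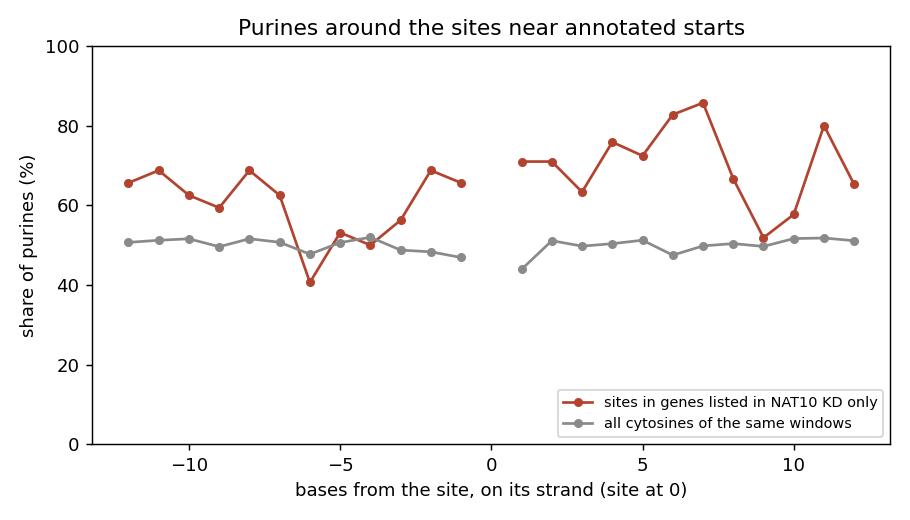
Share of purines (percent) at each of the 12 bases before and after the site, on its strand, for the 32 sites in genes listed in NAT10 KD only that RefSeq start windows cover (red) and for all cytosines of those windows (grey). Red stands at 82.8% and 85.7% at 6 and 7 bases after the site, while grey stays near 50% at most positions.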

How the data were processed

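Chemical ac4C sequencing was done on treated and input mRNA of NAT10 KD and WT H1 cells in 8 libraries. Per the submitters' processing notes, fastp 0.21.1, STAR 2.7.8a, SAMtools 1.12 and hg38 were used. For the caller, the use of input and of molecular identifiers, filters and pooling, nothing is given in the labels or headers. As deposited by the authors, there is 1 list of sites per genotype with a score per site, per the file headers, whose formula is not given there. Depth is unknown.

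A site was 1 base, printed 1-based. Genes were matched by the lists' identifier, and a site entered the set when its gene was absent from the WT list. Of 673 sites, 663 matched a gene of the RefSeq table of GRCh38.p14, by symbol and chromosome. Shares have exact 95% Clopper-Pearson intervals and medians have order-statistic intervals. No test between sets was made. Named genes were the 10 highest and 4 lowest sites, the 3 highest per group, the genes with 3 sites, the 6 highest with 2, the 4 highest noncoding genes and pseudogenes, and those with a sequence shown; a few genes under this rule are not reported here. Some further genes were named with their values known, to complete a count. Members, lists and groups were chosen with earlier results of these data known, and group members that matched by name only were removed after they were seen. The tools were SciPy 1.17.1, NumPy 2.4.6 and pandas 2.3.3 under Python 3.11.15, with matplotlib 3.10.9 for plots, and the procedures were tested on simulated data.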

Additional observations from a re-analysis of the deposited data

How the results depend on the processing

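Of 37 alternatives to 11 results, 29 left a count within 1.5 times the reported one or another value within its interval. Matching by symbol and leaving out sites near a WT site changed nothing, since neither removed a site. Their unchanged values are counted among the 29 and say nothing about how robust the results are. Without pseudogenes and genes that have one, 491 sites in 450 genes were left. With a score minimum of 2.30173, 1 above the lowest listed, applied to both lists, 159 sites in 153 genes were listed in NAT10 KD only, with a median score of 2.90 and a median position of 43.0% of the span. Of these genes, 121 were also in the set over all scores and 32 were listed in WT at a lower score. Splicing and RNA-binding genes then numbered 8 and membrane trafficking genes 6. Without genes with copies, splicing and RNA-binding genes numbered 17. On either strand, 10 sites had a WT site within 10000 bases. No paired analysis was possible because the lists carry no replicate columns, and replicates could not be left out for the same reason. A site missing from a list may have lacked reads or fallen below the score threshold, which the lists cannot separate.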

Other observations

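Gene families by symbol root were counted over the sets, which differ in size. Named genes numbered 614 in NAT10 KD only, 220 in both lists and 653 in WT only. Of all listed genes, 41.4% were listed in NAT10 KD only. Of CCDC genes, 9 were listed in NAT10 KD only, against 0 in both lists and 5 in WT only. Likewise 7 TMEM genes were listed in NAT10 KD only (0 in both, 4 in WT only), as were 7 genes of protein phosphatase subunits with PPP symbols (0 in both, 6 in WT only) and 5 myosin genes (0 in both, 2 in WT only). The Rab GTPase regulators TBC1D15, TBC1D23 and TBC1D9B scored 2.28, 1.80 and 1.87, and no gene with this symbol root was in the WT list. Other families had members in all 3 sets: SLC genes numbered 7 in NAT10 KD only, 5 in both and 8 in WT only, mitochondrial ribosomal protein genes 8, 4 and 6, ZNF genes 5, 4 and 8, and NDUF genes 4, 2 and 6. These families were picked after the members were seen and were not tested. With so few genes per family, no family is called particular to the set.

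By chromosome, the set had the most sites on chromosome 1, with 93 of 673 (13.8%). This chromosome had 73 of the 721 WT sites in genes listed in WT only and 21 of the 277 NAT10 KD sites in genes of both lists. It held 9.05% of the whole WT list and carries 10.3% of RefSeq protein-coding genes. These shares were not tested. Chromosomes 2 and 19 had 55 sites each and chromosome 17 had 53. Chromosome X had 0 sites in the set and 0 in the whole NAT10 KD list, against 1 in the WT list, although it carries 848 protein-coding genes in RefSeq (4.23%). Whether the caller or the annotation left sites of chromosome X out was not tested.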
